A study of Mus musculus with 14 samples.

Results

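The genes described here are 51 mouse genes that sense DNA damage or repair it, taken by symbol from a deposited table of 54532 genes. They are the damage kinases, the proteins that mark a double-strand break, and the enzymes of end joining, homologous recombination, interstrand crosslink repair, nucleotide and base excision, mismatch repair, translesion synthesis and nucleotide supply. All 51 symbols were found, 1 row each, and all 51 passed the filter on low counts that left 16034 genes for testing. The rule used gene names and no measured value.

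RNA was sequenced from heart tissue of 14 wild-type male C57BL/6J mice, 1 mouse per library. The irradiated mice, 8 weeks old, had received a single 30 Gy dose of 60Co γ-rays to the chest at 0.97 Gy/min under pentobarbital, with the rest of the body behind 5 mm of lead. Heart tissue was taken 1 day later from 3 irradiated mice (IRR_1d) and 3 unirradiated mice (Control_1d), and 6 weeks later from 4 irradiated (IRR_6w) and 4 unirradiated mice (Control_6w). The chest field holds lung, thymus and great vessels beside the heart, heart tissue holds cardiomyocytes, endothelium, fibroblasts and immune cells together, and only 1 dose was given.

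Ionizing radiation makes double-strand breaks, single-strand breaks and damaged bases. The kinases ATM, ATR and DNA-PKcs respond within minutes by phosphorylating histone H2AX and the checkpoint kinases, and ATM also stabilizes p53, which then raises transcription of its targets. Much of this response runs through protein modification and relocation, so repair proteins can be active with no change in their mRNA. Most cardiomyocytes of an adult mouse do not divide, and homologous recombination and much of replication-linked repair belong to dividing cells.

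Several libraries stood apart. Total counts ran from 13336746 to 16837265 per library. Control_6w replicate 3 held 4328 CPM (counts scaled to library size with TMM factors) summed over 10 thymus marker genes, including Rag1 at 1128 CPM and Dntt at 571 CPM, while the other 13 libraries held 1.10 to 58.4 CPM. In the same library the 26 cell cycle genes summed to 2731 CPM against 83.8 to 314 CPM elsewhere, and the 9 cardiomyocyte genes summed to 5225 CPM against 8675 to 45022 CPM. Which part of the heart was taken was not stated. The 5 atrium genes summed to 9.88 to 2841 CPM over the 14 libraries, so the samples held unequal amounts of atrium. They were highest in IRR_6w replicate 1 and IRR_1d replicate 3 (2841 and 1945 CPM), where brown fat genes were also high (942 and 291 CPM), as they were in Control_6w replicate 3 (691 CPM). In Control_1d replicate 1, IRR_6w replicate 3 and IRR_6w replicate 4, 37.2, 28.4 and 13.5% of genes with a mean of 2 to 5 CPM had 0 counts, against at most 6.82% in the other libraries. Macrophage genes summed to 577 to 859 CPM in IRR_6w and to 186 to 437.5 CPM in Control_6w, with no overlap. Taken singly, C1qa, C1qc and Cd14 overlapped. Cd163 was lower in IRR_6w (11.8 to 32.5 CPM) than in Control_6w replicates 1, 2 and 4 (35.4 to 51.1 CPM), with replicate 3 at 16.4 CPM. The sums of fibroblast genes also lay apart, at 2324 to 3297 CPM in IRR_6w and 927 to 2179 CPM in Control_6w. Col1a1, Col1a2, Col3a1 and Lum lay apart singly, and Dcn overlapped. Pdgfra was lower in IRR_6w (43.4 to 61.0 CPM) than in Control_6w replicates 1, 2 and 4 (75.5 to 105.4 CPM), with replicate 3 at 29.2 CPM. The sums of endothelial genes lay apart at 1 day, at 989 to 1187 CPM in IRR_1d and 1369 to 1609 CPM in Control_1d. Of these genes Kdr lay apart singly, and Pecam1, Cdh5, Tie1, Tek and Emcn overlapped. Genes of a testis germ cell list summed to 20.2 to 44.0 CPM in Control_6w replicates 1 to 3 and at most 0.301 CPM elsewhere. In those libraries the sum was mostly Mael (11.4 to 19.9 CPM) and Tssk2 (5.64 to 20.9 CPM). Prm1 was at 2.68 to 3.20 CPM, Tnp2 was under 1 CPM, and Prm2, Tnp1 and Ldhc were at 0 CPM. The part of these markers and libraries in the results below was not tested beyond leaving them out.

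Levels were compared between genes as FPKM, here TMM-scaled CPM divided by the deposited gene length in kilobases. Ddb1, the adaptor of the CUL4 ubiquitin ligase and partner of DDB2 in finding ultraviolet lesions, stood alone at the top with a mean of 50.3 FPKM over the 14 libraries. Nbn of the MRN break sensor (10.8 FPKM), Parp1, the poly(ADP-ribose) polymerase that binds strand breaks (9.29 FPKM), H2afx, the gene of histone H2AX (8.53 FPKM), and Xrcc5, the gene of Ku80 (8.43 FPKM), came next. The lowest were Palb2 (0.234 FPKM), Fancd2 (0.255 FPKM), Brca2 (0.302 FPKM), Fanca (0.345 FPKM) and Brca1 (0.407 FPKM). The lowest without Control_6w replicate 3 were Fancd2 (0.170 FPKM), Palb2 (0.194 FPKM), Brca1 (0.222 FPKM), Brca2 (0.250 FPKM) and Chek1 (0.296 FPKM), followed by Fanca (0.317 FPKM). Neighbours below Ddb1 in this order overlapped across libraries. The place of H2afx rested on Control_6w replicate 3, with 25.8 ± 36.7 CPM (SD, n = 4) in Control_6w but 7.45 ± 1.33 CPM (SD, n = 3) without that library. At least 1 library had 0 counts for 9 members, which were Chek1, Rnf8, Brca2, Palb2, Xrcc3, Fancd2, Ddb2, Ogg1 and Apex1.

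**Figure D1:**
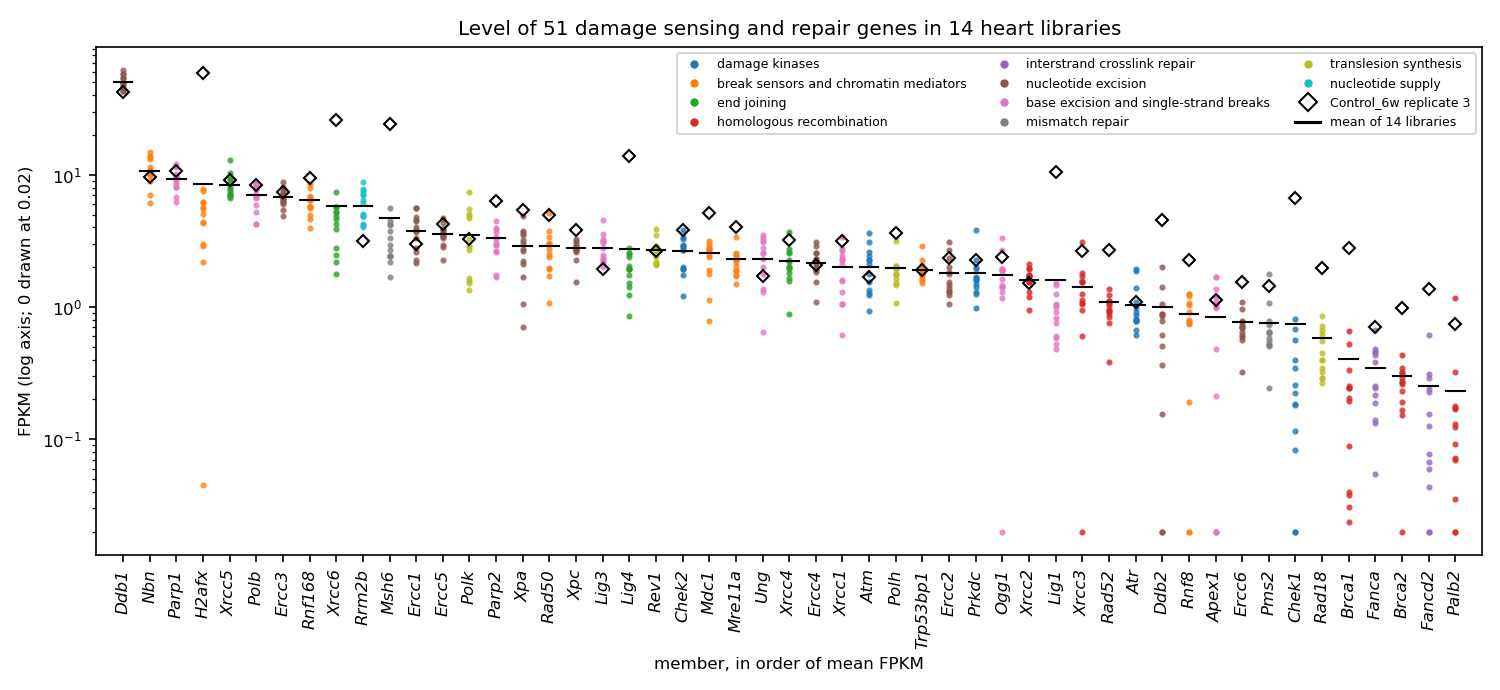
FPKM of each of the 51 members in each library on a log axis, ordered by the mean of the 14 libraries (bars), with Control_6w replicate 3 as open diamonds and values of 0 drawn at 0.02. Ddb1 stands above the rest at a mean of 50.3 FPKM, and the diamonds lie far above the other points for members such as Chek1, Brca1, Lig1 and Msh6.

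Promoters are shown for 5 members that the comparisons below turn on, because a p53 site, an E2F site or a CCAAT box there is a common feature of genes under damage or cell cycle control. The sequences are from RefSeq on GRCm38.p6, which gave a promoter for 40 of the 51 members, and the 250 bases before the start were searched on both strands. They are printed 5′ to 3′ on the gene's strand, and stretches inside an annotated exon of any gene are left out. Capitals mark matches to the p53 half-site, to E2F (TTTCCCGC, TTTCGCGC, TTTGCCGC or TTTGGCGC), to the CCAAT box (CCAAT) and to the NRF1 half-site (GCGCATGC). Atm lies at chr9:53536741-53536921 (minus strand), Brca1 at chr11:101551956-101552148 (minus), Brca2 at chr5:150522371-150522620 (plus), Fanca at chr8:123318577-123318826 (minus) and Msh6 at chr17:87974800-87975049 (plus).
Atm: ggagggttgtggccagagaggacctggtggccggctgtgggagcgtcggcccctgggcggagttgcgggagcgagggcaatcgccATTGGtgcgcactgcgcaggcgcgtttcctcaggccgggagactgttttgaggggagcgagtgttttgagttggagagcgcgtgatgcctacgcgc
Brca1: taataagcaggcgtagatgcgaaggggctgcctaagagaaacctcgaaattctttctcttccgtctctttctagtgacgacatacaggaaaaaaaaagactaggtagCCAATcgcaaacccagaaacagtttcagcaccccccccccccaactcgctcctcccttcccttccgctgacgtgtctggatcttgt
Brca2: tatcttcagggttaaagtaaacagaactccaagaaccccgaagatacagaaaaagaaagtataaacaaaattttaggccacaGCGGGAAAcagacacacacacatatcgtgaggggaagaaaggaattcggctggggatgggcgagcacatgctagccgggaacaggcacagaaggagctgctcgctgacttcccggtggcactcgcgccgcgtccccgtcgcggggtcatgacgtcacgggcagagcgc
Fanca: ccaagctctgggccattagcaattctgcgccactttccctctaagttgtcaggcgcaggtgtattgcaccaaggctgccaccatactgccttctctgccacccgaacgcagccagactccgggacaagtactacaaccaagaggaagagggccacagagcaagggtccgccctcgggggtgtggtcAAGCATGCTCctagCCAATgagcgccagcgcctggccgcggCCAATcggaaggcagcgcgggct
Msh6: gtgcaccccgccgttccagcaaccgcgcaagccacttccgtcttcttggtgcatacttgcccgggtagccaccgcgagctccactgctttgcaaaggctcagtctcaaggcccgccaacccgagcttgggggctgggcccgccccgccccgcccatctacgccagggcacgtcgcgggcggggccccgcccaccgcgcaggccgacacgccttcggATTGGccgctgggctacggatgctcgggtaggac

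Of the 40 members with a promoter, 1 (Fanca) matched the p53 half-site, while 7.18% of 27025 promoters of the genome did and 6 of 19 promoters of p53 target genes did, those of Cdkn1a, Mdm2, Bax, Ccng1, Ei24 and Gadd45a. E2F matched in 4 of the 40 (Chek2, Mdc1, Xrcc6 and Brca2) against 1.91% of all promoters, the CCAAT box in 18 against 34.5%, and the NRF1 half-site in 6 (Atm, Lig4, Xpa, Lig1, Parp2 and Polh) against 2.32%. In Brca2 the capitals of the printed window are the E2F match, in Atm, Brca1 and Msh6 they are the CCAAT box, and Fanca holds the p53 half-site beside a pair of CCAAT boxes. The NRF1 match of Atm lies outside the stretch printed. These matches describe sequence and not binding.

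The first question was whether irradiation changed the mRNA of these genes 1 day later. None of the 51 members was a DEG, defined as a fold change above 2 or below 0.5 with an adjusted p under 0.05 in edgeR's quasi-likelihood test, where 0.0249% of all tested genes were DEGs. At an unadjusted p under 0.05, 0 members were higher (background 1.94%) and 1, Brca1, was lower (background 0.960%). The median log2 fold change of the members was -0.06, beside 0.06 over all genes, with 24 members above 0 and 27 below. The 95% interval lay within 2-fold in both directions for 15 members (29.4%, against 23.5% of all genes), among them Atm, Nbn, Trp53bp1, Xrcc5, Ddb1, Parp1 and Rrm2b, so for those a 2-fold change lay outside the interval, and for the other 36 it did not. Control_6w replicate 3 is in the shared fit and so enters these 1-day intervals too. Their median half-width in log2 was 0.999 over the members and 1.13 over all genes. Without that library these were 0.893 and 0.994. In bulk tissue a change in the share of a cell type and a change in RNA per cell cannot be told apart.

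At 6 weeks again none of the members was a DEG, where 0.256% of all genes were. Atm and Polk were higher at an unadjusted p under 0.05 (2 members, 3.92%, background 5.43%), and Lig4 was lower (1 member, background 3.37%). The median log2 fold change was -0.29, beside -0.09 over all genes, with 16 members above 0 and 35 below. Without Control_6w replicate 3 the median was 0.08, beside 0.01 over all genes, with 32 members above 0 and 19 below. The side of 0 that held the larger number of members thus depended on that control library. Without it there was again no DEG (background 0.231%), Atm, Msh6 and Polk were higher at an unadjusted p under 0.05 (3 members, background 7.22%) and 0 members were lower (background 4.06%). The interval lay within 2-fold for 17 members with all libraries (33.3%, background 27.4%) and for 18 without that library (35.3%, background 29.4%).

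**Figure D2:**
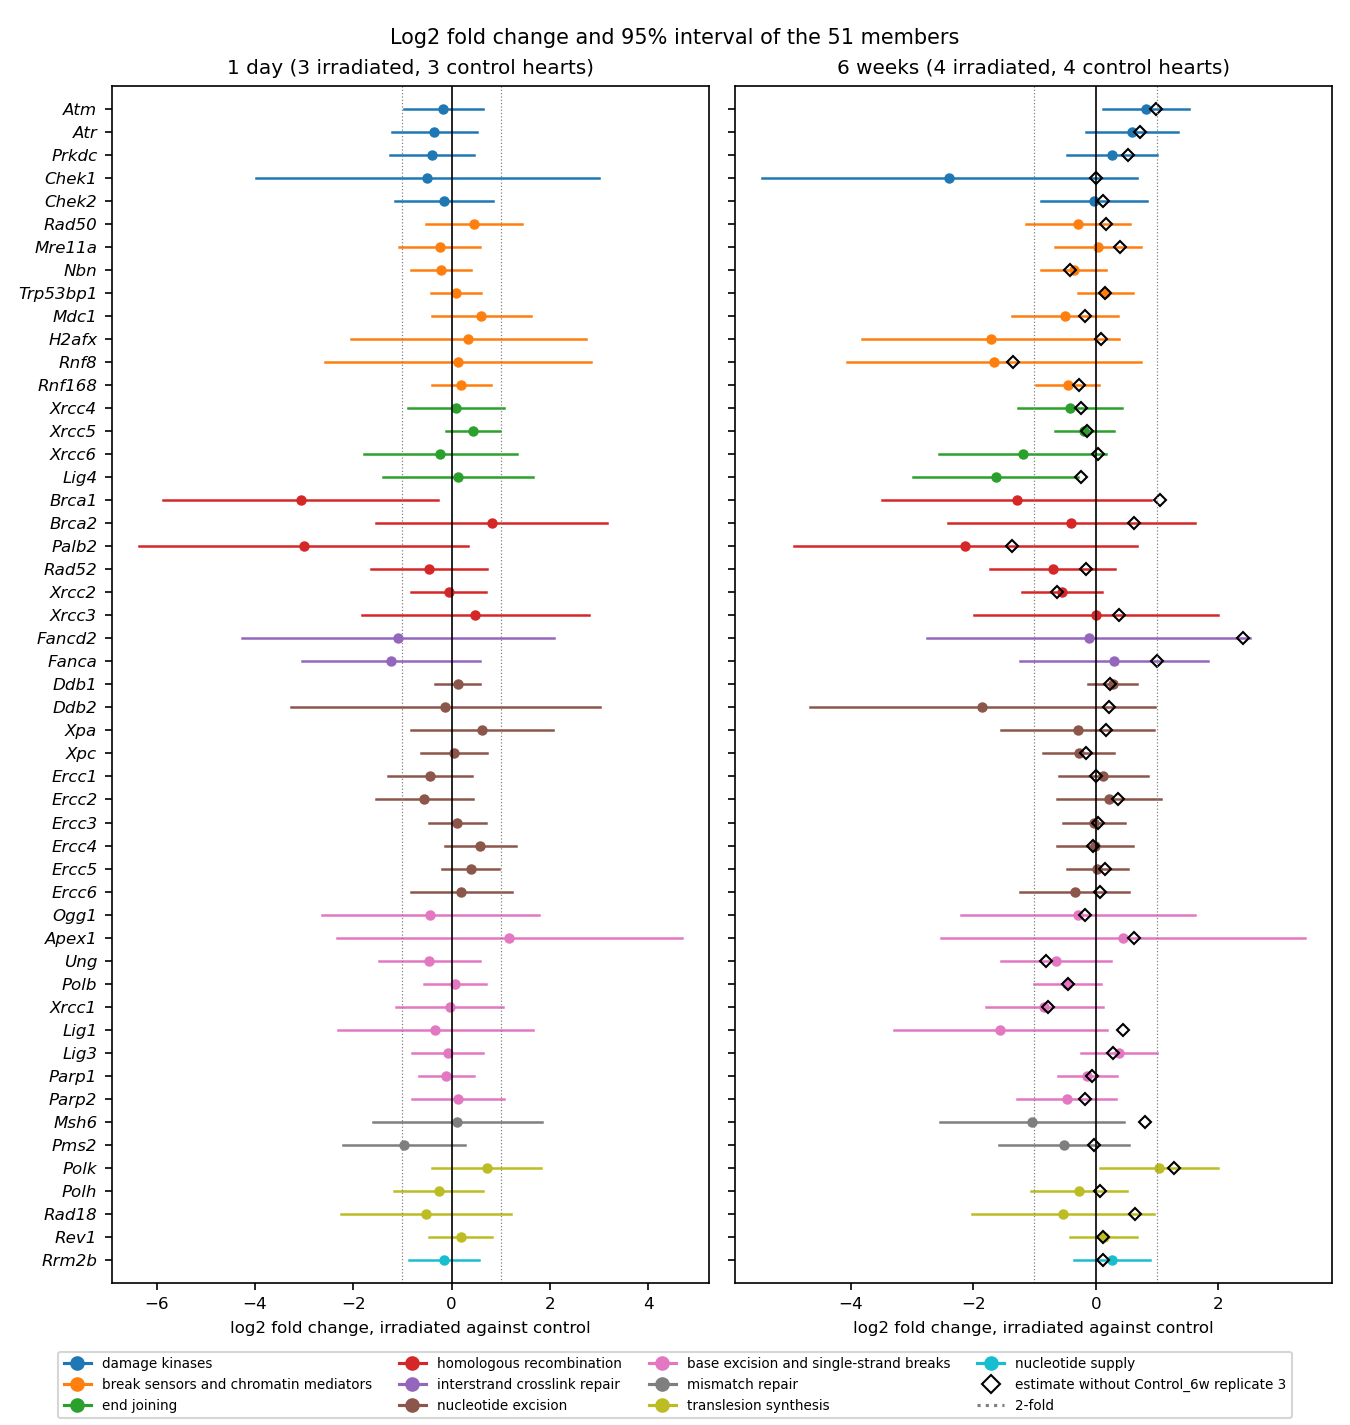
Log2 fold change of each member with its 95% interval from edgeR at 1 day (left) and 6 weeks (right), coloured by role, with dotted lines at 2-fold and open diamonds for the estimate without Control_6w replicate 3. Most intervals include 0 at both times, those of Brca1 at 1 day and of Atm, Polk and Lig4 at 6 weeks do not, and the diamonds of Chek1, H2afx, Xrcc6, Lig4, Lig1 and Msh6 sit well to the right of the points.

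Of the damage kinases, Atm, Atr, Prkdc and Chek2 were low but had counts in every library. Chek1 was near the floor, with 0 counts in Control_1d replicate 1 and IRR_6w replicate 3. Atm, the kinase activated by double-strand breaks, had 37.4, 22.1 and 16.02 CPM in Control_1d replicates 1 to 3 and 18.4, 25.3 and 23.3 CPM in IRR_1d. At 6 weeks it had 12.8, 9.57, 17.6 and 13.95 CPM in the controls and 23.4, 13.3, 31.8 and 26.7 CPM in the irradiated hearts, so 3 of the 4 irradiated values lay above every control. The log2 fold change was -0.17 (95% interval -0.98 to 0.63) at 1 day and 0.82 (SE 0.33, 95% interval 0.12 to 1.52) at 6 weeks, where the unadjusted p was 0.0249 and the adjusted p 0.461 (edgeR). The highest values of Atm in the series were in Control_1d replicate 1 and IRR_6w replicates 3 and 4, the libraries with many genes at 0. Atm, Atr and Lig3 were the 3 members with their top values in exactly these libraries, as were 2.09% of all genes. Without those 3 libraries the 6-week log2 fold change of Atm was 0.45 (unadjusted p = 0.195, edgeR). That setting, also used below, left IRR_6w replicates 1 and 2 at 6 weeks, the former with high atrium and brown fat genes. They were set against all 4 controls, Control_6w replicate 3 included. At 1 day it left Control_1d replicates 2 and 3 as the controls.

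Atr, the kinase of stalled forks and single-stranded DNA, showed the same libraries on top. It had 32.98, 25.98 and 18.6 CPM in Control_1d and 18.6, 21.7 and 20.5 CPM in IRR_1d, then 23.2, 14.5, 25.9 and 19.1 CPM in Control_6w and 18.8, 15.7, 44.01 and 45.8 CPM in IRR_6w. Atr had a log2 fold change of -0.35 (95% interval -1.21 to 0.51) at 1 day and 0.59 (95% interval -0.16 to 1.34) at 6 weeks, and -0.26 at 6 weeks without the 3 libraries. The 6-week value was 0.89 (unadjusted p = 0.0392) without the 3 libraries with RNA of other tissues, 0.77 (0.0491) without IRR_6w replicate 1 and 0.81 (0.0290) without IRR_6w replicate 2 (edgeR). Prkdc, the gene of DNA-PKcs, which joins Ku at broken ends, had 49.97, 21.1 and 18.7 CPM in Control_1d, 20.9, 21.8 and 25.4 CPM in IRR_1d, 19.7, 12.9, 29.7 and 17.1 CPM in Control_6w and 26.6, 16.5, 30.2 and 22.3 CPM in IRR_6w. Its log2 fold change was -0.40 (95% interval -1.25 to 0.45) at 1 day and 0.27 (95% interval -0.47 to 0.998) at 6 weeks.

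Chek1, which holds the S and G2 checkpoints in dividing cells, had 0, 1.61 and 1.85 CPM in Control_1d and 0.387, 0.858 and 1.19 CPM in IRR_1d. At 6 weeks it had 3.73, 0.842, 30.8 and 0.539 CPM in the controls and 1.04, 2.59, 0 and 3.18 CPM in IRR_6w. The value of 36.5 times the median of the other 6-week controls came from replicate 3, and the log2 fold change moved from -2.39 (95% interval -5.45 to 0.67) to 0.00 without it. Chek2, the kinase downstream of ATM, had overlapping groups, with 8.15, 5.24 and 8.47 CPM in Control_1d, 5.80, 10.2 and 3.63 CPM in IRR_1d, 8.15, 9.80, 11.5 and 6.06 CPM in Control_6w and 5.87, 8.79, 11.5 and 8.65 CPM in IRR_6w. Its log2 fold change was -0.16 (95% interval -1.16 to 0.84) at 1 day and -0.03 (95% interval -0.89 to 0.83) at 6 weeks. All 5 kinases had estimates below 0 at 1 day (median -0.35), but without Control_1d replicate 1 Atm had 0.23 and Prkdc 0.19. At 6 weeks 3 of 5 had estimates above 0 (median 0.27, or 0.53 with 5 of 5 above 0 without Control_6w replicate 3).

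**Figure D3:**
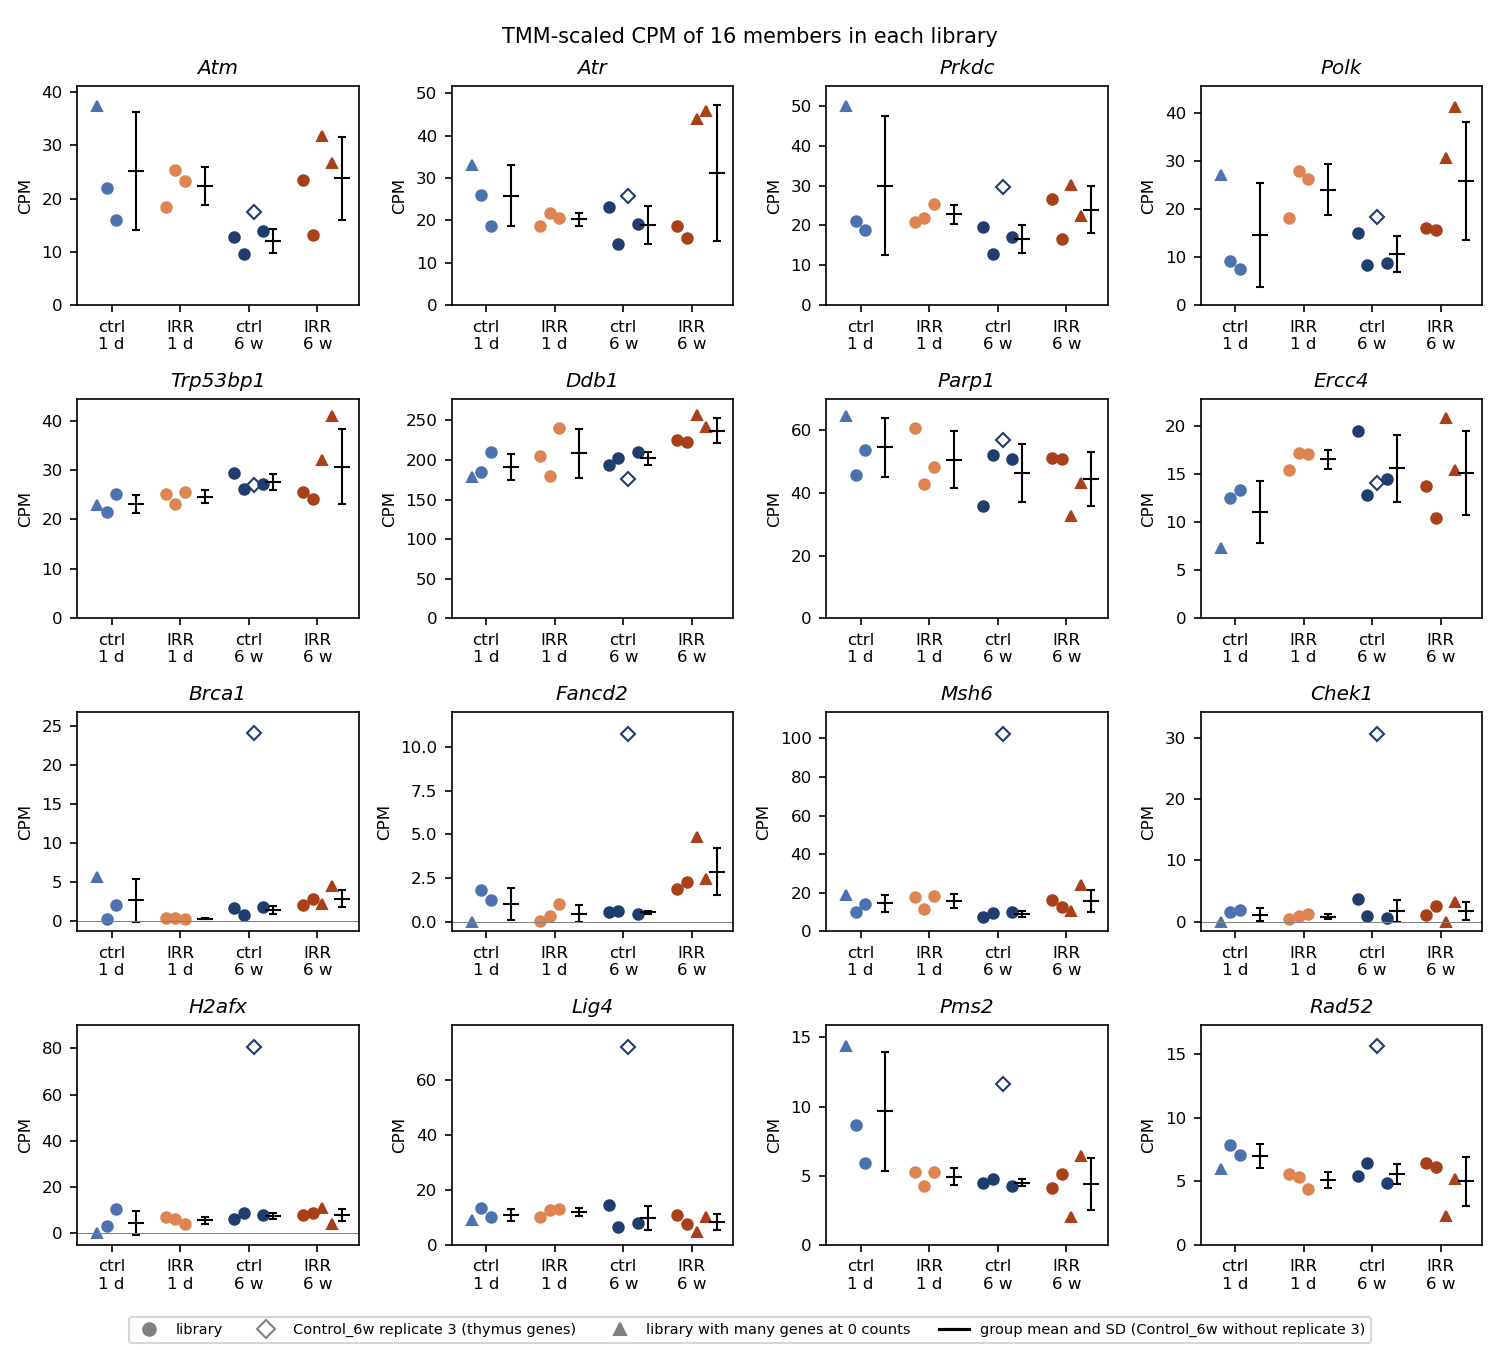
TMM-scaled CPM of 16 members in each of the 14 libraries, with the group mean and SD at the right of each group (Control_6w without replicate 3), an open diamond for Control_6w replicate 3 and triangles for the 3 libraries with many genes at 0 counts. The triangles are the top points for Atm and Atr, and the diamond is far above all other points for Brca1, Fancd2, Msh6, Chek1, H2afx and Lig4.

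Among the genes that mark a break and build the chromatin around it, Trp53bp1, whose product 53BP1 shields ends from resection, had 22.8, 21.4 and 25.1 CPM in Control_1d and 25.1, 23.2 and 25.6 CPM in IRR_1d. Its 6-week values were 29.3, 26.2, 27.1 and 27.2 CPM in controls and 25.6, 24.2, 31.9 and 40.9 CPM in IRR_6w. The log2 fold change was 0.09 (95% interval -0.42 to 0.60) at 1 day and 0.16 (95% interval -0.28 to 0.60) at 6 weeks, both within 2-fold, although 15.0% of its exonic bases lie in exons of Tubgcp4 on the other strand and the strand used in counting was not stated.

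Nbn, which recruits ATM to breaks, was the most abundant break sensor. It had 37.6, 33.5 and 27.7 CPM in Control_1d, 24.9, 34.9 and 25.8 CPM in IRR_1d, 22.7, 28.9, 24.4 and 34.6 CPM in Control_6w and 25.8, 27.04, 17.8 and 15.5 CPM in IRR_6w. With log2 fold changes of -0.21 (95% interval -0.82 to 0.40) and -0.36 (95% interval -0.89 to 0.17), Nbn stayed within 2-fold at both times. Its MRN partners Rad50 and Mre11a had log2 fold changes of 0.46 and -0.25 at 1 day and of -0.28 and 0.04 at 6 weeks, with all their intervals across 0, and at 6 weeks Rad50 had 0.17 and Mre11a 0.40 without Control_6w replicate 3. Mdc1, the scaffold that reads phosphorylated H2AX, had 5.83, 13.3 and 20.5 CPM in Control_1d, 21.3, 18.4 and 20.3 CPM in IRR_1d, 17.8, 20.4, 38.3 and 19.6 CPM in Control_6w and 23.5, 22.2, 14.2 and 8.41 CPM in IRR_6w. Its lowest values came from Control_1d replicate 1 and IRR_6w replicate 4, and its log2 fold change was 0.60 (95% interval -0.41 to 1.61) at 1 day and -0.50 (95% interval -1.36 to 0.37) at 6 weeks, or -0.18 without Control_6w replicate 3.

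H2afx, whose phosphorylated product is the standard stain for breaks, had 0.0627, 3.02 and 10.4 CPM in Control_1d and 6.96, 6.09 and 4.03 CPM in IRR_1d. At 6 weeks it had 6.01, 8.65, 80.8 and 7.68 CPM in controls and 7.88, 8.55, 10.9 and 4.18 CPM in IRR_6w. The 6-week log2 fold change was -1.71 (95% interval -3.81 to 0.38) with all libraries and 0.08 without Control_6w replicate 3, the library at 80.8 CPM. The ubiquitin ligases of the same cascade, Rnf8 and Rnf168, had 6-week log2 fold changes of -1.66 (95% interval -4.06 to 0.74) and -0.46 (95% interval -0.98 to 0.06). Rnf8 had 3.27, 3.98, 7.24 and 3.84 CPM in Control_6w and 3.39, 2.35, 0.0636 and 0 CPM in IRR_6w, and its log2 fold change was -0.67 without the 3 libraries with many genes at 0. Of its exonic bases, 13.2% are shared with Gm28043 on the same strand. Rnf168, with Xrcc4, Xrcc5, Ercc3 and Xrcc1, was among the 5 members whose 3 lowest values were in the libraries with many genes at 0, as held for 6.08% of all genes.

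End joining is the main way to close a double-strand break in a cell that does not divide. Xrcc5 had 17.2, 23.9 and 18.1 CPM in Control_1d, 20.8, 33.1 and 26.2 CPM in IRR_1d, 19.2, 20.1, 23.4 and 23.7 CPM in Control_6w and 22.03, 18.2, 17.9 and 17.7 CPM in IRR_6w. The log2 fold change was 0.44 (95% interval -0.12 to 0.99) at 1 day, where the irradiated values lay partly above the controls, and -0.19 (95% interval -0.67 to 0.29) at 6 weeks. Xrcc6, the gene of its partner Ku70, reached 115 CPM in Control_6w replicate 3 against 9.82 to 25.5 CPM in the other 6-week controls, so its log2 fold change of -1.19 at 6 weeks became 0.04 without it. Lig4, the ligase that seals the joined ends, had 9.09, 13.4 and 10.2 CPM in Control_1d and 10.1, 12.5 and 13.02 CPM in IRR_1d. At 6 weeks Lig4 had 14.5, 6.43, 71.95 and 7.88 CPM in controls and 10.6, 7.35, 4.45 and 10.02 CPM in IRR_6w. Its log2 fold change of -1.63 (SE 0.63, 95% interval -2.98 to -0.28) with an unadjusted p of 0.0210 and an adjusted p of 0.436 (edgeR) became -0.24 (95% interval -1.07 to 0.58) without Control_6w replicate 3. Xrcc4, the partner of Lig4, had 0.09 at 1 day and -0.42 at 6 weeks.

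Homologous recombination copies the sequence lost at a break from the sister chromatid. Brca1, which starts resection and loads the recombinase with BRCA2, had 5.64, 0.201 and 2.08 CPM in Control_1d, or 90, 2 and 27 counts. In IRR_1d it had 0.322, 0.343 and 0.264 CPM, or 5, 4 and 4 counts, below all but 1 of the controls. At 6 weeks Brca1 had 1.68, 0.765, 24.04 and 1.75 CPM in controls and 2.07, 2.83, 2.16 and 4.47 CPM in IRR_6w, so every irradiated heart lay above the 3 controls other than replicate 3. The 1-day log2 fold change was -3.07 (SE 1.31, 95% interval -5.87 to -0.27), with an unadjusted p of 0.0338 and an adjusted p of 1 (edgeR). It was -1.88 with an unadjusted p of 0.212 when the 3 libraries with many genes at 0 were left out. The 6-week log2 fold change of Brca1 was -1.29 with all libraries and 1.04 (95% interval -0.89 to 2.97) without Control_6w replicate 3.

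Brca2, the loader of the recombinase, had 0, 3.73 and 3.70 CPM in Control_1d and 3.93, 4.29 and 4.76 CPM in IRR_1d, groups that did not overlap, and then 2.59, 2.07, 13.4 and 3.17 CPM in Control_6w and 3.57, 2.29, 5.92 and 4.37 CPM in IRR_6w. Brca2 had a log2 fold change of 0.81 (95% interval -1.55 to 3.17) at 1 day, which was 0.22 without the 3 libraries with many genes at 0, and -0.40 (95% interval -2.41 to 1.62) at 6 weeks, or 0.63 (95% interval -1.43 to 2.68) at 6 weeks without Control_6w replicate 3. Palb2, which bridges BRCA1 and BRCA2, had 8.53, 0.906 and 1.23 CPM in Control_1d and 0.516, 0.258 and 0.529 CPM in IRR_1d, with no overlap, and 2.36, 1.30, 5.47 and 0.674 CPM and 1.27, 0.963, 0 and 0 CPM at 6 weeks. Its 1-day log2 fold change was -3.01 (95% interval -6.36 to 0.34), with an unadjusted p of 0.0747 in edgeR, and it rested on 136 counts in Control_1d replicate 1 against 9 and 16 in the other controls. Without the 3 libraries with many genes at 0 the value for Palb2 was -1.28.

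Rad52, an annealing factor, had 5.96, 7.85 and 7.09 CPM in Control_1d and 5.54, 5.32 and 4.36 CPM in IRR_1d, again apart. Its 6-week values were 5.40, 6.43, 15.6 and 4.85 CPM in controls and 6.39, 6.14, 2.23 and 5.13 CPM in IRR_6w, and the log2 fold changes were -0.46 (95% interval -1.63 to 0.72) and -0.70 (95% interval -1.72 to 0.32), the latter -0.16 without Control_6w replicate 3. Xrcc2 and Xrcc3, which are paralogs of the recombinase, had log2 fold changes of -0.06 and 0.48 at 1 day and -0.55 and 0.01 at 6 weeks. The 1-day value for Xrcc3 was -0.11 without the 3 libraries with many genes at 0. Without Control_6w replicate 3, Xrcc2 was the 1 member whose irradiated 6-week values (4.96 to 8.07 CPM) all lay below the controls (8.95 to 11.0 CPM).

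Fancd2, the protein that is ubiquitinated at a crosslink, had 0, 1.81 and 1.23 CPM in Control_1d and 0.0644, 0.343 and 0.991 CPM in IRR_1d. At 6 weeks it had 0.533, 0.612, 10.8 and 0.472 CPM in controls and 1.90, 2.29, 4.83 and 2.47 CPM in IRR_6w, where every irradiated heart exceeded the controls other than replicate 3. For Fancd2 the log2 fold change was -1.09 (95% interval -4.27 to 2.09) at 1 day and -0.11 (95% interval -2.74 to 2.52) at 6 weeks, or 2.40 (95% interval -0.28 to 5.08) without that library. The 1-day value for Fancd2 was -2.29 without the 3 libraries with RNA of other tissues and -1.68 without the 3 with many genes at 0. Fanca, of the core complex that ubiquitinates FANCD2, had 4.20, 4.03 and 3.39 CPM in Control_1d and 1.16, 2.15 and 1.65 CPM in IRR_1d, which did not overlap. Its later values were 1.22, 2.22, 6.21 and 1.89 CPM in Control_6w and 3.80, 4.03, 5.92 and 0.475 CPM in IRR_6w, with log2 fold changes of -1.23 (95% interval -3.03 to 0.58) and 0.30 (95% interval -1.24 to 1.83). For Fanca the 6-week value without Control_6w replicate 3 was 1.00 (95% interval -0.58 to 2.58). Fanca is the member whose printed promoter holds the p53 half-site, as 7.18% of all promoters do. Any link of that match to these values was not tested.

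Over all members, 3 were higher with no overlap between groups at 1 day (Brca2, Ercc4 and Ercc5, 5.88%, background 6.52%) and 4 were lower (Palb2, Rad52, Fanca and Pms2, 7.84%, background 4.14%). At 6 weeks 1 was higher with no overlap (Ddb1, 1.96%, background 4.08%) and 0 were lower (background 1.64%). Without Control_6w replicate 3 these counts were 5 higher (Brca1, Fancd2, Ddb1, Msh6 and Polk, 9.80%, background 7.68%) and 1 lower (Xrcc2, background 6.18%).

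Nucleotide excision removes bulky lesions and is not the main answer to γ-rays. Ddb1 had 178, 185 and 209.5 CPM in Control_1d and 206, 179.5 and 241 CPM in IRR_1d. At 6 weeks it had 194, 202, 176 and 210.1 CPM in controls and 226, 223, 257 and 241 CPM in IRR_6w, so all 4 irradiated hearts lay above all 4 controls. The difference was small, with means of 237 ± 15.8 and 195 ± 14.9 CPM (SD, n = 4) and a log2 fold change of 0.28 (SE 0.19, 95% interval -0.12 to 0.68), and the edgeR test gave an unadjusted p of 0.157. Ddb2, its partner in lesion recognition and a p53 target in human cells, had log2 fold changes of -0.13 at 1 day and -1.85 at 6 weeks, or 0.22 without Control_6w replicate 3. Ddb2 shares 23.8% of its exonic bases with Acp2 on the other strand.

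Ercc4, which with Ercc1 cuts 5′ of the lesion, had 7.34, 12.5 and 13.3 CPM in Control_1d and 15.4, 17.2 and 17.1 CPM in IRR_1d, with no overlap. It had 19.6, 12.9, 14.1 and 14.5 CPM in Control_6w and 13.8, 10.4, 20.9 and 15.4 CPM in IRR_6w. Ercc4 had a log2 fold change of 0.58 (95% interval -0.14 to 1.31) at 1 day and -0.01 (95% interval -0.63 to 0.61) at 6 weeks. Ercc5, which cuts on the other side, had 20.2, 16.7 and 20.7 CPM in Control_1d and 25.4, 22.2 and 27.6 CPM in IRR_1d, also apart, and 13.2, 20.3, 24.8 and 21.4 CPM in Control_6w and 22.8, 21.7, 17.2 and 19.5 CPM in IRR_6w. Its log2 fold change was 0.39 (95% interval -0.19 to 0.97) at 1 day and 0.03 (95% interval -0.47 to 0.53) at 6 weeks. The other 6 genes of this role were Xpa, Xpc, Ercc1, Ercc2, Ercc3 and Ercc6. Their estimates ran from -0.55 (Ercc2) to 0.61 (Xpa) at 1 day and from -0.34 (Ercc6) to 0.22 (Ercc2) at 6 weeks. Every interval lay across 0. Control_6w replicate 3 held Ercc6 at 19.8 CPM and Xpa at 10.2 CPM. Without that library the 6-week control mean of Ercc6 was 8.51 CPM, against 8.95 CPM in IRR_6w. For Xpa these means were 4.08 and 4.58 CPM. Ercc2 had -0.43 at 6 weeks without the 3 libraries with many genes at 0, and 42.7% of its exonic bases are shared, mostly with Gm26852 on the other strand.

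Base excision and single-strand break repair deal with the commonest lesions of γ-rays. Parp1 had 64.3, 45.6 and 53.8 CPM in Control_1d, 60.6, 42.9 and 48.1 CPM in IRR_1d, 35.7, 52.2, 56.7 and 50.9 CPM in Control_6w and 51.2, 50.6, 32.7 and 42.99 CPM in IRR_6w. The groups overlapped throughout, and the log2 fold change of Parp1 was -0.11 (95% interval -0.67 to 0.45) at 1 day and -0.14 (95% interval -0.62 to 0.34) at 6 weeks, within 2-fold both times. Polb, the gap-filling polymerase, had 0.08 (95% interval -0.56 to 0.71) and -0.46 (95% interval -1.01 to 0.09), and Xrcc1, the scaffold of single-strand break repair, had -0.04 (95% interval -1.13 to 1.05) and -0.84 (95% interval -1.78 to 0.11). The glycosylases Ogg1 (8-oxoguanine) and Ung (uracil) had -0.43 and -0.45 at 1 day and -0.30 and -0.65 at 6 weeks, and Parp2 had 0.13 and -0.47. Lig1, the ligase of replication and long-patch repair, was at 44.8 CPM in Control_6w replicate 3 against 2.06 to 4.29 CPM in the other 6-week controls, and its 6-week log2 fold change was -1.56 with that library and 0.45 without it. Lig3, its counterpart in single-strand break repair, had -0.08 and 0.37, with 25.1% of its exonic bases in exons of Rffl on the other strand. Apex1, the abasic site nuclease, had at most 2.42 CPM in any library, and 61.7% of its exonic bases lie in exons of Pip4p1 on the other strand, so its values are uncertain.

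In mismatch repair, Msh6, which recognizes mismatches, had 19.1, 10.3 and 14.2 CPM in Control_1d and 17.6, 11.4 and 18.1 CPM in IRR_1d. At 6 weeks Msh6 had 7.23, 9.34, 102 and 10.3 CPM in controls and 16.1, 12.6, 10.4 and 23.8 CPM in IRR_6w. The 6-week log2 fold change was -1.04 (95% interval -2.54 to 0.45) with all libraries and 0.81 (95% interval 0.06 to 1.56) without Control_6w replicate 3, where the unadjusted p was 0.0357 and the adjusted p 0.395 (edgeR). Pms2, the endonuclease that follows, had 14.4, 8.66 and 5.93 CPM in Control_1d and 5.28, 4.21 and 5.29 CPM in IRR_1d, with no overlap. It had 4.49, 4.74, 11.6 and 4.25 CPM in Control_6w and 4.08, 5.12, 1.97 and 6.41 CPM in IRR_6w, and its log2 fold changes were -0.97 (95% interval -2.20 to 0.26) and -0.51 (95% interval -1.57 to 0.55), the latter -0.03 without Control_6w replicate 3.

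Translesion polymerases copy past damaged bases. Polk, which bypasses bulky adducts on guanine, had 27.2, 9.26 and 7.47 CPM in Control_1d and 18.1, 27.98 and 26.2 CPM in IRR_1d. At 6 weeks it had 15.1, 8.42, 18.3 and 8.69 CPM in controls and 16.1, 15.7, 30.6 and 41.2 CPM in IRR_6w. At 1 day the irradiated values lay above 2 of the 3 controls, and the exception, Control_1d replicate 1, is a library with many genes at 0. The log2 fold change was 0.72 (95% interval -0.39 to 1.82) at 1 day and 1.04 (SE 0.45) at 6 weeks, where the unadjusted p was 0.0368 and the adjusted p 0.520 (edgeR). Without the 3 libraries with many genes at 0 it was 1.53 at 1 day (unadjusted p = 0.00324, adjusted p = 1, edgeR) and 0.34 at 6 weeks (unadjusted p = 0.367). Polh, Rad18 and Rev1 of the same role had log2 fold changes of -0.26, -0.52 and 0.19 at 1 day and -0.27, -0.54 and 0.13 at 6 weeks. Without Control_6w replicate 3, which held Rad18 at 11.4 CPM, the 6-week values were 0.06 for Polh and 0.64 for Rad18. Of the exonic bases of Rev1, 26.6% lie in Eif5b on the other strand.

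Rrm2b encodes the p53-inducible subunit of ribonucleotide reductase, which supplies nucleotides outside S phase. It had 79.9, 68.6 and 44.8 CPM in Control_1d, 46.01, 71.1 and 55.8 CPM in IRR_1d, 58.5, 38.4, 29.1 and 44.4 CPM in Control_6w and 38.4, 36.9, 64.6 and 65.7 CPM in IRR_6w. The groups overlapped, and the log2 fold change was -0.16 (95% interval -0.88 to 0.55) at 1 day and 0.27 (95% interval -0.35 to 0.89) at 6 weeks, within 2-fold.

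Control_6w replicate 3 was set against the other 6-week controls member by member. In it, 17 members were above 2 times the highest of the others (background 15.8% of all genes), and 11 were above 3 times (Chek1, H2afx, Xrcc6, Lig4, Brca1, Brca2, Fancd2, Ddb2, Lig1, Msh6 and Rad18, background 9.93%). The members summed to 1435 CPM there and to 827 to 941 CPM in the other 13 libraries. The ratio to the median of the other 3 was 36.5 for Chek1, 20.2 for Fancd2 and 14.4 for Brca1, and it was 0.611 for Ung and 0.654 for Rrm2b. Thymus RNA, cell cycle RNA and these members moved together in this library, and they cannot be told apart in it.

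**Figure D4:**
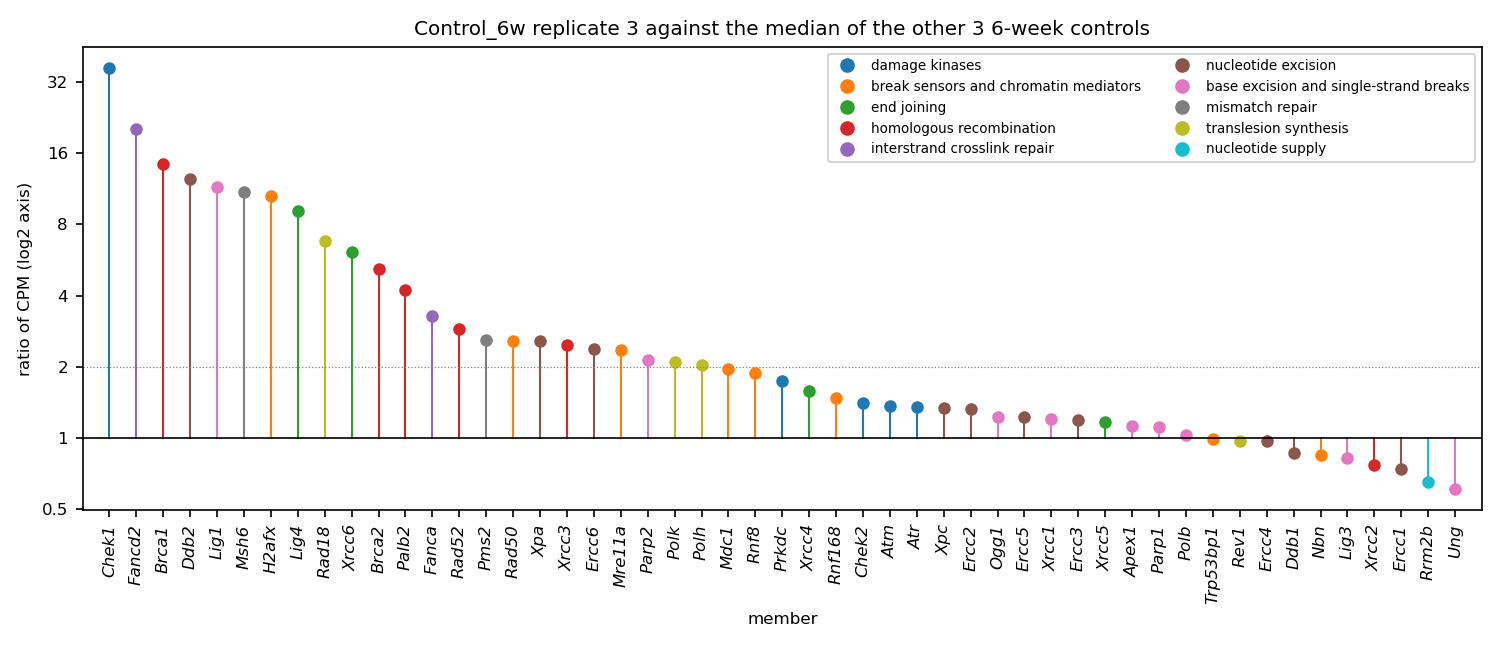
Ratio of CPM in Control_6w replicate 3 to the median of the other 3 6-week controls for each of the 51 members on a log2 axis, coloured by role. Chek1 is highest at 36.5 and Ung lowest at 0.611, and members of every large role lie above the dotted line at 2.

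Between the unirradiated groups (Control_6w against Control_1d), 0 members were DEGs (background 0%). H2afx was higher at an unadjusted p under 0.05 (1 member, background 3.54%) and Atm lower (1 member, background 1.75%), and the median log2 fold change was 0.18, beside 0.12 over all genes, with 35 members above 0 and 16 below. When Control_6w replicate 3 was left out, 0 members were higher (background 1.93%) and 3 were lower (Atm, Prkdc and Pms2, background 1.90%), and the median was -0.18, beside 0.05 over all genes, with 19 above 0 and 32 below. For H2afx the log2 fold change was 2.52 with an unadjusted p of 0.0422 and 0.73 without Control_6w replicate 3, and for Atm it was -0.90 (95% interval -1.65 to -0.15) with an unadjusted p of 0.0214 (edgeR). Without Control_1d replicate 1, a library with many genes at 0, the value for Atm was -0.50 and its unadjusted p was no longer under 0.05. Between the irradiated groups (IRR_6w against IRR_1d), again 0 members were DEGs (background 0.0374%). Brca1 was higher at 6 weeks (1 member, background 4.20%) and 0 members were lower (background 1.60%), with 0.322, 0.343 and 0.264 CPM at 1 day and 2.07, 2.83, 2.16 and 4.47 CPM at 6 weeks, groups that did not overlap. Leaving out Control_6w replicate 3, which is in neither group but enters the shared fit, gave 1 member higher (Brca1, background 5.84%) and 2 lower (Rad50 and Rnf168, background 2.51%). With all libraries the log2 fold change of Brca1 was 3.19 (SE 1.28, 95% interval 0.46 to 5.92), with an unadjusted p of 0.0253 and an adjusted p of 0.790 in edgeR. DESeq2 run on these 2 groups alone, the only alternative run that called a member, made Brca1 a DEG with a log2 fold change of 3.21 and an adjusted p of 0.00105. In edgeR the unadjusted p was 0.0634, 0.0607 and 0.0691 without IRR_1d replicates 1, 2 and 3 in turn and 0.0587 without the 3 libraries with many genes at 0, and limma-voom gave 0.0602, with log2 fold changes of 2.95 to 3.23. At an unadjusted p under 0.05, library totals alone gave Atr, Trp53bp1, Brca1, Ercc1 and Ercc2 as higher in IRR_6w. Limma-voom gave Rad50 and Rnf8 as lower. Fancd2 was higher beside Brca1 in the DESeq2 fits and in edgeR on the compared groups alone. It was also higher with the replicate number as a block and without the 3 libraries with RNA of other tissues. Between the unirradiated groups, library totals alone gave Mdc1, H2afx and Lig1 as higher and did not call Atm.

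The change in the irradiation effect from 1 day to 6 weeks gave 0 DEGs among the members (background 0%). At an unadjusted p under 0.05 it gave 0 members in the higher direction (background 2.13%) and 0 in the lower (background 1.01%). Without Control_6w replicate 3 these counts were 2 (Atm and Brca1, background 3.64%) and 0 (background 1.12%), and the change for Brca1 was 4.11 (95% interval 1.18 to 7.04) with an unadjusted p of 0.00955 and an adjusted p of 0.658 (edgeR). For Atm it was 0.99 (95% interval -0.07 to 2.06) with all libraries and 1.15 (95% interval 0.08 to 2.23) without that one.

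Other genes of the same biology give the scale. Of 97 other repair genes, 96 were tested, and none was a DEG at either time. At 1 day 2 were higher at an unadjusted p under 0.05 (Rnf169, a competitor of 53BP1 at breaks, with a log2 fold change of 1.16, and Parp3 with 0.68) and 1 was lower (Neil3, at 0.812 ± 1.24 CPM in Control_1d and 0 counts in every IRR_1d library). At 6 weeks 0 were higher and 4 were lower (Rpa2, Rfc4, Tipin and Pcna, all genes of replication), and without Control_6w replicate 3, 3 were higher and 0 lower. Their median log2 fold change was -0.08 at 1 day and -0.38 at 6 weeks, or 0.03 without that library.

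The p53 target genes gave other counts in the same libraries. Of 24 tested, 14 were higher at 1 day at an unadjusted p under 0.05 and 0 were lower, with a median log2 fold change of 1.24. Sesn2, a stress-induced inhibitor of growth signalling, rose as a DEG, from 4.39 ± 2.66 to 39.3 ± 8.16 CPM (SD, n = 3). Its log2 fold change was 3.16 with an adjusted p of 0.0235 in edgeR's quasi-likelihood test. Among all genes tested, 0 were DEGs at 1 day without Control_1d replicate 1 or 2 or without the 3 libraries with many genes at 0. The same held in limma-voom and in edgeR on the compared groups alone, so the Sesn2 call was lost in each. When Control_6w replicate 3 was left out of the fit, 14 p53 targets were again higher and 0 lower at 1 day, and 4 were DEGs (Sesn2, Cdkn1a, Phlda3 and Trp53inp1, with log2 fold changes of 3.16, 2.44, 2.71 and 2.65). Cdkn1a, the p21 cell cycle inhibitor, had 37.6 ± 18.2 CPM in Control_1d and 204.5 ± 43.7 CPM in IRR_1d (SD, n = 3). At 6 weeks 9 were higher and 1 lower, and the median was 0.37. Of these, 2 were DEGs (Eda2r with a log2 fold change of 3.48 and Zmat3 with 2.10). Both calls were lost, with 0 DEGs among all genes, when IRR_6w replicate 4 alone was dropped. Dropping IRR_6w replicate 3, Control_6w replicate 2 or Control_6w replicate 1 singly did the same, as did dropping the 3 libraries with many genes at 0. Among all genes, 24, 98 and 16 DEGs remained after dropping Control_6w replicate 4, IRR_6w replicate 1 and IRR_6w replicate 2 in turn. With Control_6w replicate 3 left out, 11 p53 targets were higher and 2 lower at 6 weeks, with a median of 0.41. The 2 DEGs were then Eda2r (3.29) and Phlda3 (2.33), while Trp53inp1 went from -0.59 to 1.82. Of the members, those described as p53 targets in human cells had 1-day log2 fold changes of -0.16 for Rrm2b, 0.05 for Xpc, -0.13 for Ddb2 and -0.26 for Polh. These lay below the median of the p53 target list, but some genes of that list lay in the same range. Examples were Sesn1 (-0.30), Tigar (-0.24), Ccng1 (-0.12) and Fas (0.09). The difference between the lists was not tested.

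Cell cycle genes, summed over 26 genes, reached 142 to 179 CPM in Control_1d and 83.8 to 118 CPM in IRR_1d, with no overlap. At 6 weeks they reached 119 to 169 CPM in the controls other than replicate 3 and 185 to 314 CPM in IRR_6w, again apart. At 1 day 0 were higher and 2 lower at an unadjusted p under 0.05 (Bub1 and Mki67), with a median log2 fold change of -1.12. In the fit without Control_6w replicate 3, 0 were higher and 8 lower at 1 day, and Mki67 fell as a DEG with a log2 fold change of -3.15 and an adjusted p of 0.0280 in edgeR, while the median was -1.13. At 6 weeks 0 were higher and 3 lower (Mcm7, Mki67 and Ccne2), with a median of -1.54, but without Control_6w replicate 3 there were 5 higher and 0 lower, with a median of 1.22. The part of dividing cells in the values of Brca1 and Fancd2 was not tested.

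**Figure D5:**
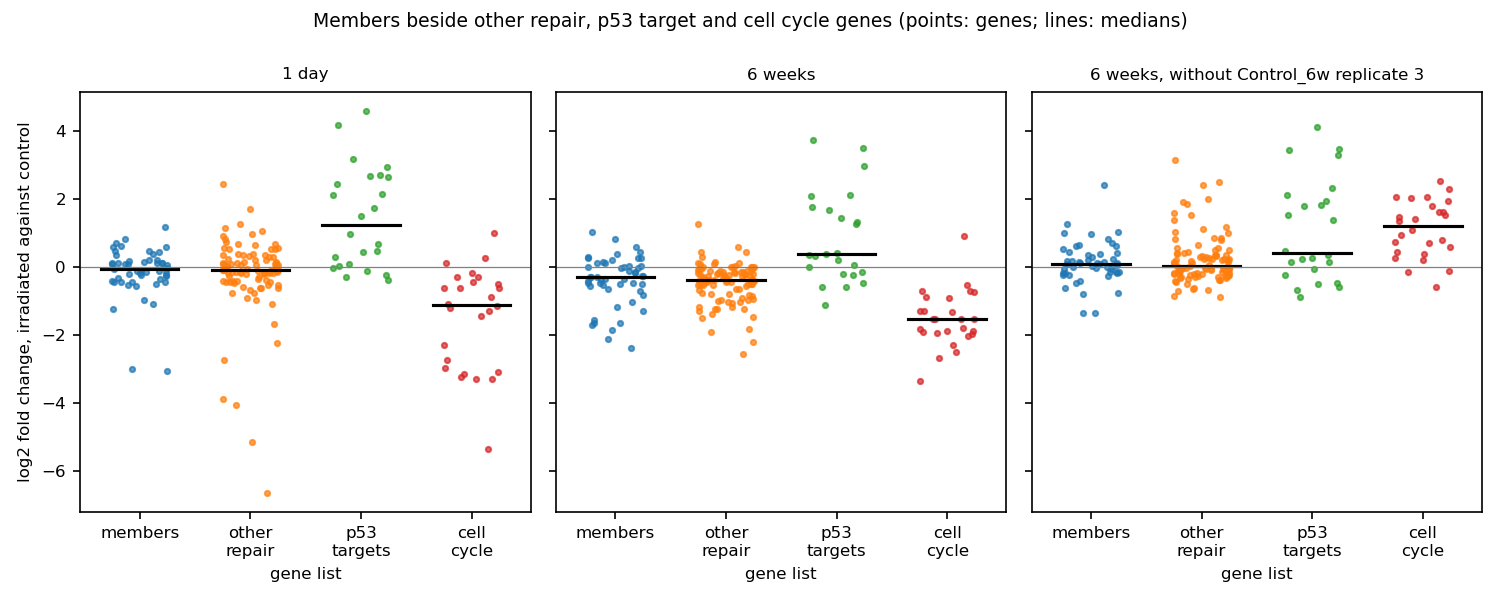
Log2 fold change of each tested gene in 4 lists at 1 day, at 6 weeks and at 6 weeks without Control_6w replicate 3, with a bar at each median. At 1 day the p53 targets lie mostly above 0 (median 1.24) and the members around 0 (median -0.06), and the cell cycle genes change from a median of -1.54 to 1.22 when the control library is left out.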

How the data were processed

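Bulk RNA-seq of 14 mouse heart samples was analysed from the deposited table of raw counts per gene. The authors trimmed reads with Trim Galore 0.6.1, checked them with FastQC 0.11.8, aligned them to mm10 with STAR 2.5.0a and counted them with HTSeq; the strand setting and annotation release are not given in the sources used here. Each library came from a separate mouse.

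The 51 members and the lists of other genes were chosen with earlier results of these data known. Counts were filtered with filterByExpr, scaled by TMM and fitted in edgeR 4.0.16 (R 4.3.3) by its quasi-likelihood test with 4 groups in 1 model, and p-values were adjusted by Benjamini-Hochberg over all 16034 genes kept. The fit was tested on simulated data. The study used DESeq2, which was run as an alternative (1.42.0), as was limma-voom (3.58.1). Other alternatives changed the scaling, the filter, the libraries in the fit or the call rule, or used the replicate number as a block. Total counts were 13336746 to 16837265 per library, and intervals are 95%.

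Members with values in every library were those with an unadjusted p under 0.05 in any comparison, those whose groups did not overlap, the 5 of highest and the 5 of lowest mean FPKM, and the damage kinases and break sensors Atm, Atr, Prkdc, Chek1, Chek2, H2afx, Trp53bp1 and Mdc1, 23 in all. Msh6, Rrm2b and the ranges of Xrcc2, Xrcc6, Lig1 and Apex1 were added after their values were seen. Of the other lists, genes of smallest p were named. Markers of cell types and tissues were summed as CPM. Promoters came from RefSeq on GRCm38.p6.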

Additional observations from a re-analysis of the deposited data

Results flagged for a closer look

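In groups of 4, 16 of 102 groups tested had 1 library far from the others by Dixon's test, which chance gives in about 1 group in 20 and which 12.5% of 32051 such groups over all genes tested had. Of the 16 in the members, 14 were in Control_6w replicate 3, the library with thymus genes, and lay above the other controls (27.5% of 51 members, against 13.1% of the 16034 genes tested with that library far from the others in either direction).

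In that library Chek1 was at 30.8 CPM against at most 3.73 in the other controls, Brca1 at 24.0 against at most 1.75, Brca2 at 13.4 against at most 3.17 and Fancd2 at 10.8 against at most 0.612. H2afx was at 80.8 CPM against at most 8.65, Xrcc6 at 115.3 against at most 25.5 and Lig4 at 71.95 against at most 14.5. Msh6 was at 102.4 CPM against at most 10.3, Lig1 at 44.8 against at most 4.29 and Mdc1 at 38.3 against at most 20.4. The others were Rad52 at 15.6 CPM, Ddb2 at 12.4, Pms2 at 11.6 and Rad18 at 11.4.

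Xrcc5 was at 22.0 CPM in IRR_6w replicate 1, the library with lung and atrium genes, against 17.7 to 18.2 CPM in the other irradiated hearts. Apex1 was at 0 CPM in Control_6w replicate 1 against 1.42 to 1.68 CPM in the other 6-week controls.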

How the results depend on the processing

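The members at an unadjusted p under 0.05 with all libraries kept their direction in the alternatives run. Msh6, Atr, H2afx, Lig1 and Xrcc6 were among those past that p at 6 weeks in some alternatives alone that did not, and without Control_6w replicate 3 the cell cycle genes went from 0 higher and 3 lower at 6 weeks to 5 higher and 0 lower (Mki67 from -2.68 to 1.40, log2), and the other repair genes went from 0 higher and 4 lower to 3 higher and 0 lower. The count of member DEGs was 0 in every comparison and alternative run, except for 1 (Brca1, IRR_6w against IRR_1d) with DESeq2 on the compared groups alone. The counts at an unadjusted p under 0.05 are small and moved with the setting. Members higher at 1 day numbered 0, and 1 (Polk) without the 3 libraries with many genes at 0, with 0 to 1 when single libraries were left out. Members lower at 1 day numbered 1, but 0 without those 3 libraries and in limma-voom, 0 in edgeR on the compared groups alone, where Brca1 did not pass the filter and 49 members were tested, and 2 with DESeq2 on all libraries or on the compared groups alone, with 0 to 2 when single libraries were left out. Brca1 had a log2 fold change of -1.87 without Control_1d replicate 1, and of -3.08, -3.11 and -2.96 without IRR_1d replicates 1, 2 and 3, each with an unadjusted p over 0.05 (edgeR). Members higher at 6 weeks numbered 2, 0 without the 3 libraries with many genes at 0, 3 (Atm, Ddb1 and Polk) with library totals alone and 3 (Atm, Atr and Polk) without the 3 libraries with RNA of other tissues, with 0 to 3 when single libraries were left out. Atm had an unadjusted p (edgeR) of 0.0552 without Control_6w replicate 1, 0.0799 without Control_6w replicate 2, 0.0797 without IRR_6w replicate 3 and 0.0546 without IRR_6w replicate 4. Members lower at 6 weeks numbered 1, but 0 without the 3 libraries with RNA of other tissues, without the 3 with many genes at 0 and in edgeR on the compared groups alone, 2 with DESeq2 on all libraries, 3 in limma-voom and 4 with no filter, with 0 to 3 when single libraries were left out. The cause was not tested. Scaling by library totals alone shifted the median log2 fold change at 6 weeks from -0.09 to 0.14 over the genes tested and from -0.29 to -0.12 over the members.

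With the replicate number as a block there were 0 members lower at 1 day, 1 higher (Atm) and 0 lower at 6 weeks, and no DEG. The animals differ, and the deviations of same-numbered libraries correlated at -0.16, 0.04 and -0.08 at 1 day and -0.36, 0.37, -0.18 and 0.04 at 6 weeks, so the numbers did not pair the libraries. At least 1 library had 0 counts for 9 members, all of these zeros in Control_1d replicate 1, Control_6w replicate 1 and IRR_6w replicates 3 and 4, the libraries with the most genes at 0. Intervals cover the spread between these mice only.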
